A study of Mus musculus with 10 samples.

Results

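Otx1, Otx2, Gbx1 and Gbx2 are homeobox transcription factors that divide early tissues into regions, and their RNA was examined in inner ears of mouse embryos. Genes were taken by symbol from a table of 15472 genes, and 2 of the 4 were found, Otx1 and Otx2; Gbx1 and Gbx2 are not analysed here, since neither their symbols nor their Ensembl identifiers matched a row used here. The libraries came from inner ears of E16.5 embryos on the C57BL/6 background, 5 from wild-type embryos (WT, +/+) and 5 from embryos homozygous for the nmf219 allele of Tbx1, a T-box transcription factor gene of the otocyst and the mesenchyme around it. No drug or other agent is named in the labels. Whole ears were used, so a value sums over epithelium, mesenchyme, ganglion, otic capsule and attached tissue, and fewer cells of a type and less RNA per cell cannot be told apart. The labels do not say whether the samples of a genotype came from separate embryos or litters, and the p-values therefore describe only how far these libraries vary, which may be technical.

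OTX proteins are the vertebrate relatives of fly orthodenticle and GBX proteins those of fly unplugged. In the neural plate Otx2 marks forebrain and midbrain, Gbx2 marks anterior hindbrain, and their mutual repression sets the border between them. In the mouse ear, Otx1 is needed for the lateral semicircular canal and for normal separation of the chambers, Otx2 is active in the non-sensory roof of the cochlear duct, and Gbx2 is needed for the endolymphatic duct and dorsal vestibule. Outside the ear Otx2 is also a strong product of choroid plexus epithelium, the tissue that secretes cerebrospinal fluid and makes transthyretin, encoded by Ttr. A dissected ear can carry some of that tissue, and for this reason Ttr was set beside Otx2 in every library.

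The part that the 4 genes share is the homeobox, 180 bases that encode the DNA-binding homeodomain. The homeoboxes are shown because they separate the measured pair from the other pair; they were read from GENCODE M21 transcripts (GRCm38, all on the minus strand) and are given 5′ to 3′ on the coding strand. Capitals mark codon 50, whose product touches DNA and is a main determinant of the bases preferred.
Otx1: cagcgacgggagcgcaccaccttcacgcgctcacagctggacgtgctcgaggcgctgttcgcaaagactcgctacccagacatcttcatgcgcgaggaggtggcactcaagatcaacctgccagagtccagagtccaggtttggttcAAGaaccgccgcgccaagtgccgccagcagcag
Otx2: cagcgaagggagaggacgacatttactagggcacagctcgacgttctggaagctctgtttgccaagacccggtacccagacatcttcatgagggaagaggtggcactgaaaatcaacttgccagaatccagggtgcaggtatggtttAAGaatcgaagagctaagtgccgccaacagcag
Gbx1: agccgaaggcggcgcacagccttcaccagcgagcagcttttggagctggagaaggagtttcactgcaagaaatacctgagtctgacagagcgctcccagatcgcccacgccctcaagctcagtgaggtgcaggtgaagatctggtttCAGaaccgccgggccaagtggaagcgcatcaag
Gbx2: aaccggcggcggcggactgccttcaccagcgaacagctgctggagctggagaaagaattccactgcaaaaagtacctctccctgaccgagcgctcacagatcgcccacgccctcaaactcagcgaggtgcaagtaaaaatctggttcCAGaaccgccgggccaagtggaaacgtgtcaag
Codon 50 was AAG, for lysine, in Otx1 and Otx2 and CAG, for glutamine, in Gbx1 and Gbx2. Otx1 and Otx2 were identical at 80.0% of the 180 bases and Gbx1 and Gbx2 at 84.4%, while the pairs across the families were identical at 46.7% to 53.9%. The homeobox of Otx2 lies in 2 coding exons, chr14:48661299-48661436 and chr14:48659285-48659326, and that of Otx1 in chr11:21998370-21998507 and chr11:21997017-21997058, each split into 138 and 42 bases. Those of Gbx1 (chr5:24504721-24504900) and Gbx2 (chr1:89928749-89928928) each lie in 1 exon.

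Of the Otx and Gbx genes, RefSeq promoters (GRCm38.p6, 300 bases around a start site, most of them before it) were given for Otx2, with 4 start sites, and for Gbx2, with 1. Each was searched on both strands for TAATCC, the sequence that OTX proteins prefer, for GGTGTGA, part of a T-box half-site, and for TATAAA; the searched motifs did not overlap in them. Among 32851 promoters of the table, 7.06% held TAATCC, 3.98% held GGTGTGA and 13.6% held TATAAA. The promoter of Otx2 at chr14:48665060-48665359 (minus strand) is shown because it was the 1 of the 4 that held TAATCC, here as its reverse complement GGATTA, in capitals.
Otx2 promoter: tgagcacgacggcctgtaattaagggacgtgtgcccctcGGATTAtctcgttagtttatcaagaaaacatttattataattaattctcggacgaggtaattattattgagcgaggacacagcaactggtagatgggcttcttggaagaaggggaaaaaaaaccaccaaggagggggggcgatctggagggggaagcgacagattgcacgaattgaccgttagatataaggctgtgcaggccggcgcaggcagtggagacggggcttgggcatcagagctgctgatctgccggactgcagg
None of the 4 Otx2 promoters held GGTGTGA, and the one at chr14:48667595-48667894, whose start site is the 5′ end of Otx2 in the table, held TATAAA. That match lay nearer to the 5′ end of the 300 bases than to the start site. The Gbx2 promoter held none of the 3 motifs. A match of letters is a description and not a measured binding site.

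The values are normalized signals close to read counts scaled to a common library total, and each is a whole multiple of 1 step per library, which is taken as 1 read and was worth 0.0239 to 0.0317. That step gives 31244799 to 41875972 reads for the listed genes of a library. Most libraries held too few low values for a separate check of the step, so the read numbers and counting intervals given here rest on that assumption. Genes of the labelled tissue were well measured: Oc90, an otoconial protein gene, was at 1119 to 1256 in WT and 1055 to 1232 in nmf219, and all 8 inner ear markers examined (Otog, Tecta, Otoa, Myo7a, Pou4f3, Sox10, Otor and Coch) were present. Tbx1 RNA averaged 24.3 in WT (SD 4.08, n = 5) and 25.2 in nmf219 (SD 2.02, n = 5), and this level cannot check the genotype labels, because the nature of the allele is not given in the labels. Ddx3y, a Y-linked gene, was at 95.8, 104 and 114 in WT replicates 3, 4 and 5 and at 0.0858 or less in the other 7 libraries, so embryo sex was not balanced between the genotypes. The nmf219 libraries carry the numbers 7050 to 7054 and the WT libraries 7058 to 7062, so library order and genotype cannot be told apart.

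Otx2 RNA was lower in most mutant ears than in most wild-type ears, whereas Otx1 RNA was not. Otx2 was 1.84-fold lower in the mean of nmf219, and Otx1 was 1.16-fold higher, within the spread between libraries. Neither gene passed limma's test over all 15472 genes at a Benjamini-Hochberg adjusted p under 0.05, a threshold that 13 genes (0.084%) passed. At an unadjusted p under 0.05, 1 of the 2 passed, Otx2, where 7.11% of all genes did and 3.23% did in the lower direction. The authors' deposited table gave Otx2 an FDR of 9.24e-12 and Otx1 an FDR of 0.901, with 3.26% of its genes at an FDR under 0.05 and 0.711% so and lower in the mutant.

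Otx2 (ENSMUSG00000021848, chromosome 14, 48657679 to 48667644 in the table's coordinates, minus strand) was at a normalized value of 9.88, 10.6, 9.61, 13.2 and 5.27 in WT replicates 1 to 5. In nmf219 replicates 1 to 5 it was at 5.29, 3.87, 5.0, 5.21 and 6.97. Of the WT libraries, 4 lay above every nmf219 library, and WT replicate 5 lay among the nmf219 libraries, below replicates 1 and 5. The WT mean was 9.72 ± 2.86 (SD, n = 5) and the nmf219 mean 5.27 ± 1.11 (SD, n = 5). As log2(value + 1), a scale that makes differences of low genes look smaller, the difference was -0.74 (SE 0.19, 95% interval -1.17 to -0.32, limma adjusted p = 0.491). A two-sided exact permutation test of the same log2 values gave p = 0.0238, where 5 against 5 cannot go below 0.00794. By its unadjusted p, Otx2 was 81st of 15472 genes. In the authors' deposited table its log2 fold change was -0.89.

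Library WT replicate 5 decided whether Otx2 passed. Without it, the Otx2 difference was -0.92 (SE 0.13) and limma's adjusted p was 0.0378. In that fit 14 of 15472 genes passed. Genes at an unadjusted limma p under 0.05 numbered 2272, against 1100 with all 10 libraries, so leaving it out moved many genes besides Otx2. Without any other single library, the difference was -0.63 to -0.83 and the gene did not pass. Reads behind the Otx2 values numbered 160 to 554 per library, and counting error alone was 4.25% to 7.91% of a value. The 95% counting interval of WT replicate 5, 4.51 to 6.13, did not reach that of the next lowest WT library, replicate 3, at 8.56 to 10.8; these intervals assume that 1 step is 1 read.

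**Figure D1:**
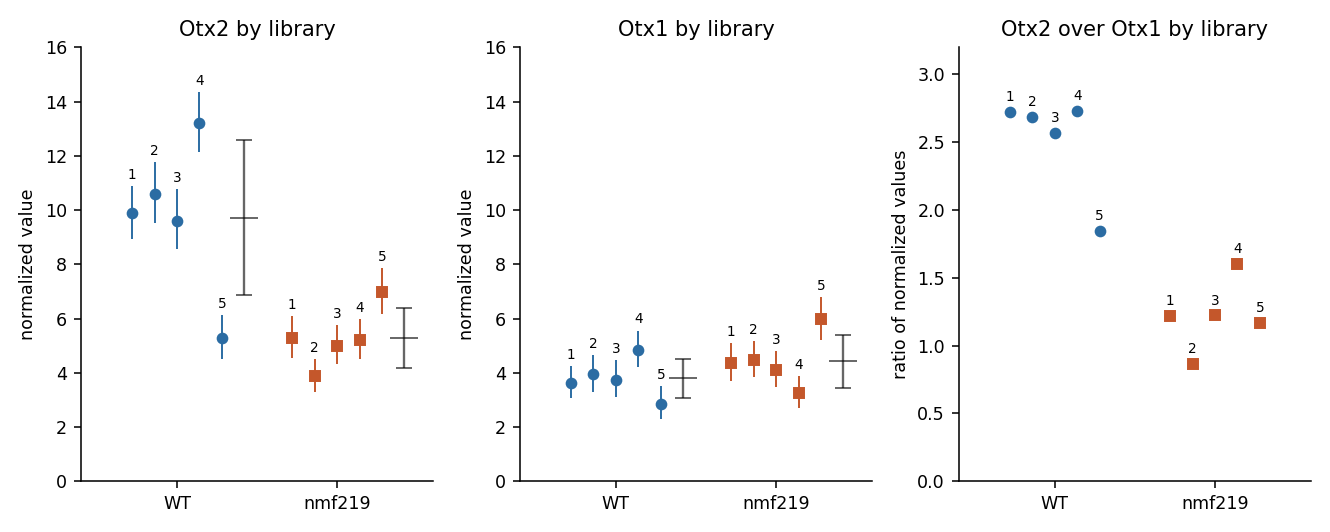
Normalized values of Otx2 (left) and Otx1 (middle) in each library, with 95% counting intervals as thin bars, replicate numbers above the points, and group mean ± SD (n = 5) at the right of each group; the right panel gives the ratio of the values of Otx2 and Otx1. Otx2 is at 9.61 to 13.2 in WT replicates 1 to 4, at 5.27 in WT replicate 5 and at 3.87 to 6.97 in nmf219, while Otx1 overlaps between the genotypes.

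Otx1 (ENSMUSG00000005917, chromosome 11, 21994764 to 22002897 in the table's coordinates, minus strand) was at 3.63, 3.94, 3.74, 4.84 and 2.85 in WT replicates 1 to 5. In nmf219 replicates 1 to 5 it was at 4.35, 4.48, 4.09, 3.26 and 5.97. The genotypes overlapped, with the lowest library in WT and the highest in nmf219. The means were 3.8 ± 0.714 (SD, n = 5) and 4.43 ± 0.985 (SD, n = 5), a difference of 0.17 on the log2 scale (SE 0.13, 95% interval -0.12 to 0.46, limma adjusted p = 0.759, exact permutation p = 0.286). The interval does not reach the difference of Otx2, -0.74, and its upper end is 0.46. Reads behind the Otx1 values numbered 92 to 226 per library, a counting error of 6.65% to 10.4%.

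The ratio of the paralogs separated the genotypes. The ratio of Otx2 to Otx1 values was 2.72, 2.69, 2.57, 2.73 and 1.85 in WT replicates 1 to 5, whereas nmf219 replicates 1 to 5 had 1.22, 0.865, 1.22, 1.6 and 1.17. All WT ratios lay above all nmf219 ratios, including that of WT replicate 5. The ratio was chosen after the values were seen and is given as a description, with no test. Per kilobase of merged exons (4221 bases in Otx2 and 5422 in Otx1, GENCODE M21), Otx2 averaged 2.30 ± 0.679 in WT (SD, n = 5) and 1.2 ± 0.263 in nmf219, and Otx1 averaged 0.701 ± 0.132 and 0.817 ± 0.182. By these lengths, Otx2 exceeded Otx1 in every library. The length used for Otx2 takes in exons beyond 48667644, the upper coordinate of its span in the table. Its values per kilobase may therefore be too low. Of all listed genes, 24.8% had a lower mean value than Otx2 and 17.0% a lower mean value than Otx1.

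The GENCODE model of Otx2, longer than the span in the table, overlaps the antisense gene Otx2os1, which starts at 48668708, and Gm49154 on the same strand, which starts at 48672094. Both lie outside the table's span of Otx2. Whether counting used the strand is not given in the sources used here, and reads of these genes and Otx2 cannot be told apart where the authors' annotation overlapped.

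Ttr RNA varied far more than Otx2 RNA and did so mainly within WT. It was at 208, 37.3, 41.0, 2.12 and 4.06 in WT replicates 1 to 5, whereas nmf219 replicates 1 to 5 were at 4.12, 2.73, 6.16, 15.3 and 2.67. WT replicates 1 to 3 lay above every nmf219 library, and WT replicate 4 lay below every one. Ttr was 9.42-fold lower in the mean of nmf219, a log2 difference of -1.87 (SE 0.98, limma adjusted p = 0.695, exact permutation p = 0.143), and did not pass. The size rested on WT replicate 1, without which the log2 difference was -1.06. The authors' deposited table gave Ttr an FDR of 1.13e-166.

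Otx2 did not follow Ttr across all 10 libraries. The library with the highest Otx2, WT replicate 4 at 13.2, had the lowest Ttr, 2.12. WT replicate 1, with a Ttr value of 208, had about the same Otx2 (9.88) as WT replicates 2 and 3, where Ttr was near 40 (37.3 and 41.0). In nmf219, replicate 4 had the highest Ttr (15.3) and an Otx2 value (5.21) among those of its group, while replicate 5 had the highest Otx2 (6.97) and the lowest Ttr (2.67). Over 10 libraries on the log2 scale, Pearson's r was 0.44 (permutation p = 0.207) and Spearman's rho 0.14 (permutation p = 0.709), with adjusted p = 0.357 and 0.887 over 10 relations. Without the 2 libraries farthest from the median of Ttr, WT replicates 1 and 3, r was 0.18, and between deviations from the genotype means it was 0.11. This rested in part on WT replicate 4: without it r was 0.80 (exact permutation p = 0.0120, n = 9), while without any other single library r was 0.33 to 0.47.

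Without a covariate the Otx2 difference between the genotypes was -0.74. With log2(Ttr + 1) as a covariate, it was -0.70 (SE 0.23, limma adjusted p = 0.467). With the mean of the choroid plexus list it was -0.77 (SE 0.19, limma adjusted p = 0.214). That mean differed by -0.08 between the genotypes, and many genes of the list are also active in the ear, so it cannot measure carry-over alone. The part of carry-over in the Otx2 difference was not tested. Within the nmf219 group and WT replicates 4 and 5 together, Ttr stayed at 2.12 to 15.3. Otx2 ran from 3.87 to 6.97 in these libraries except WT replicate 4, which alone was at 13.2.

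**Figure D2:**
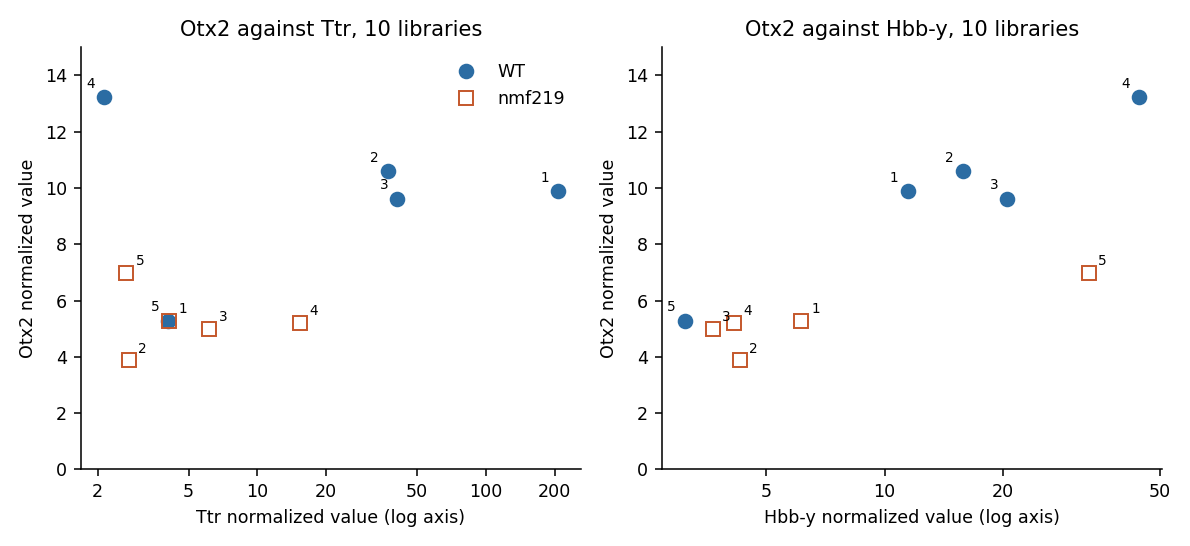
Otx2 normalized value in each of 10 libraries (WT filled circles, nmf219 open squares, replicate numbers beside them) against Ttr on the left and Hbb-y on the right, both on log axes. WT replicate 4 has the highest Otx2 (13.2) with the lowest Ttr (2.12) and the highest Hbb-y (44.4); WT replicate 5 has the lowest Otx2 of WT with the lowest Hbb-y (3.10).

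The wider set of choroid plexus genes had a median difference near that of all genes. Of 18 listed genes 15 were measured, 10 of them higher and 5 lower in nmf219 by the log2(value + 1) difference. Of the 15, 0 passed limma's test in either direction, where 0.084% of all genes passed. The median log2 difference of the 15 was 0.02, against -0.01 over all genes. Their summed value was 512 to 914 in WT and 597 to 740 in nmf219, and the mean of the list on the log2 scale averaged 3.94 ± 0.398 in WT (SD, n = 5) and 3.86 ± 0.177 in nmf219 (exact permutation p = 0.706). Many of these genes are also active in the ear or its mesenchyme, such as Igfbp2, an IGF binding protein gene (231 ± 33.0 in WT), Aqp1, a water channel gene (168 ± 32.0), Enpp2 (62.6 ± 7.19) and Wfikkn2 (36.5 ± 3.0). Among the 6 genes listed as defining, Kcnj13 and Folr1 had no value here, and the summed value of Ttr, Clic6, Tmem72 and Slc4a5 was 34.8 to 255 in WT and 37.6 to 49.2 in nmf219. Clic6, a chloride channel family gene, was at 29.0 to 39.0 in WT and 30.9 to 36.4 in nmf219. Tmem72 was at 0.215 to 2.24 and 0.502 to 1.78. Slc4a5, a bicarbonate transporter gene of the plexus, was at 6.09, 2.66, 2.48, 0.978 and 0.900 in WT replicates 1 to 5, whereas nmf219 libraries were at 0.343 to 1.2, so it was high in the same 3 WT libraries as Ttr; its log2 difference was -0.84 (SE 0.32, limma adjusted p = 0.680), and the authors' deposited table gave it an FDR of 4.97e-22. The other measured genes of the list, 1500015O10Rik, Prlr, Slc4a10, Sostdc1, Kl, Calml4 and Steap1, had log2 differences of -0.01 to 0.39.

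Otx2 varied with the embryonic globin Hbb-y, whose RNA comes from primitive red cells and declines as definitive red cells replace them. Hbb-y was at 11.4, 15.8, 20.5, 44.4 and 3.10 in WT replicates 1 to 5, whereas nmf219 replicates 1 to 5 were at 6.15, 4.28, 3.66, 4.15 and 33.0. WT replicate 5, with the lowest Otx2 of its group, had the lowest Hbb-y, and WT replicate 4, with the highest Otx2, had the highest. In nmf219 the highest Otx2 and the highest Hbb-y were both in replicate 5. Over 10 libraries Pearson's r was 0.83 (permutation p = 0.00532, adjusted p = 0.0532 over 10 relations) and Spearman's rho 0.78 (permutation p = 0.0101, adjusted p = 0.0769), and neither passed after adjustment. Without the 2 libraries farthest from the median of Hbb-y, WT replicate 4 and nmf219 replicate 5, r was 0.91, and between deviations from the genotype means it was 0.88. Leaving out each library in turn gave 0.75 to 0.93. The share of all genes that varied with Hbb-y to this degree is not given here, so the relation is not shown to be particular to Otx2.

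Otx1 varied with Hbb-y too, with r = 0.62 (permutation p = 0.0559, adjusted p = 0.167) over 10 libraries. Its highest library in each genotype was the one with the highest Hbb-y, at 4.84 in WT replicate 4 and 5.97 in nmf219 replicate 5. Without these libraries r was 0.18, so the relation over all 10 rested on them. Between deviations from the genotype means r was 0.90, a value that still includes both of these libraries. With log2(Hbb-y + 1) as a covariate, the difference between the genotypes was -0.50 (SE 0.11, limma adjusted p = 0.219) for Otx2 and 0.34 (SE 0.08, limma adjusted p = 0.326) for Otx1, and neither passed. The Otx2 difference was thus smaller by over 0.2, and both standard errors were smaller (0.19 for Otx2 and 0.13 for Otx1 without it). With Hbb-y and Ttr together the values were -0.39 and 0.29. The part of embryo stage in these differences was not tested; the labels give the same age for every sample.

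The remaining relations of the 10 did not pass after adjustment. Otx2 had r = -0.08 (permutation p = 0.828) with the mean of the choroid plexus list, 0.10 (permutation p = 0.789) with that of the brain lists and -0.60 (permutation p = 0.0669) with that of the muscle genes. Otx1 had r = -0.43 (permutation p = 0.214) with Ttr and -0.61 (permutation p = 0.0619, adjusted p = 0.167) with the choroid plexus list. Its rho with that list was -0.76 (permutation p = 0.0154, adjusted p = 0.0769), and r without the 2 farthest libraries was -0.79.

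The sample descriptions begin with numbers from 2 separate ranges, each with libraries of both genotypes. In numbers 2162 to 2169, Otx2 was at a mean of 7.94 in 2 WT and 4.72 in 3 nmf219 libraries, and in 2199 to 2208 at 10.9 in 3 WT and 6.09 in 2 nmf219 libraries. In log2 terms the Otx2 difference was -0.58 (SE 0.25) and -0.75 (SE 0.17), lower in nmf219 in both ranges, and it did not pass over all genes in either (limma adjusted p = 1.00 and 0.999). For Otx1 the differences were 0.28 (SE 0.13) and 0.11 (SE 0.23). Without the 3 WT libraries with Ddx3y RNA, Otx2 differed by -0.86 (SE 0.15, limma adjusted p = 0.148). That fit kept 2 WT libraries, replicates 1 and 2, with Ttr at 208 and 37.3, and left out WT replicate 5. In it Ttr differed by -3.88. The part of embryo sex in the Otx2 difference was not tested. Skeletal muscle RNA also differed between the libraries: Myh3, embryonic myosin, was at 48.4 to 693 in WT and 249 to 884 in nmf219. With the mean of Myh3, Ckm and Acta1 as a covariate, Otx2 differed by -0.62 (SE 0.25) and Otx1 by 0.29 (SE 0.17).

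**Figure D3:**
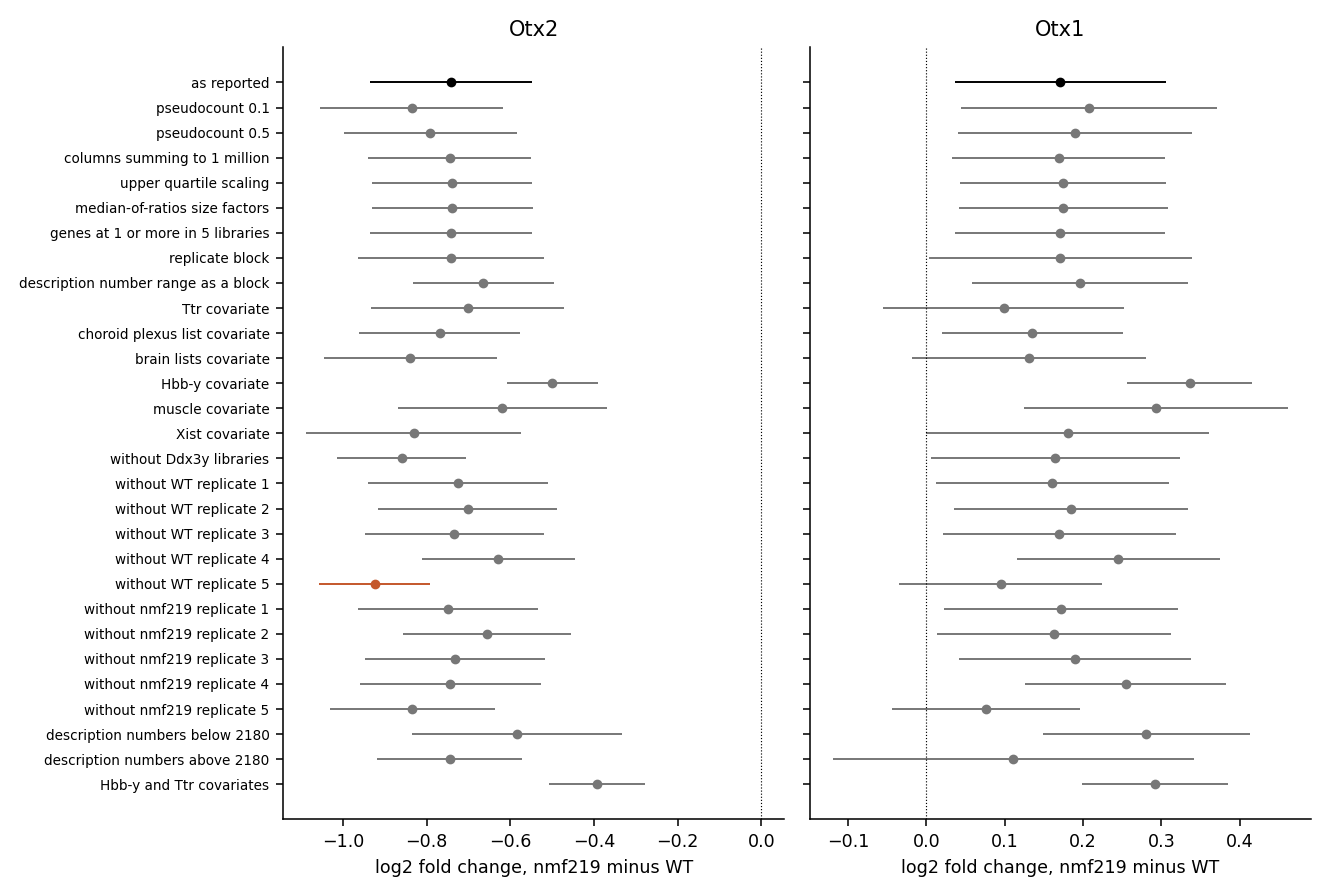
Log2 difference, nmf219 minus WT, of Otx2 (left) and Otx1 (right) under each setting, with bars of 1 SE; the black point is the value as reported and orange marks an adjusted p under 0.05. Otx2 runs from -0.92 to -0.39 and passes only without WT replicate 5; Otx1 runs from 0.08 to 0.34 and passes in none of the settings shown.

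Among the other genes of otic patterning, a list chosen with earlier results known, most did not pass. Of 17 listed genes 16 were measured, 6 higher and 10 lower in nmf219 by the log2(value + 1) difference. Their median log2 difference was -0.04. Of the 16, 1 passed lower and 0 higher, where 0.084% of all genes passed in either direction. The one was Tbx3, a T-box factor gene, which fell from 34.0 ± 0.637 (SD, n = 5) to 23.0 ± 0.552. Pax2, a medial otocyst factor gene needed for the cochlea, was at 10.4, 10.3, 10.1, 13.2 and 8.47 in WT replicates 1 to 5, whereas nmf219 replicates 1 to 5 were at 6.12, 6.99, 6.48, 6.28 and 8.61. As with Otx2, its lowest WT library was replicate 5 and its highest nmf219 library replicate 5, and those were its 1 overlap (log2 difference -0.54, SE 0.11, limma adjusted p = 0.176). Msx2, a dorsal factor gene, was at 5.68 to 6.80 in WT and 4.04 to 5.39 in nmf219, a log2 difference of -0.29 (limma adjusted p = 0.517), with no overlap, which held in that direction for 0.782% of all genes. The abundant members Eya1 (154 ± 5.43 in WT and 150 ± 3.99 in nmf219) and Gata2 (86.0 ± 2.40 and 78.7 ± 4.62) did not pass, nor did the dorsal genes Dlx5 (0.10), Hmx2 (-0.17) and Hmx3 (-0.10) or the prosensory gene Sox2 (-0.01).

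Genes of the non-sensory roof of the cochlear duct, where Otx2 is active, had differences near 0. Of 7 listed genes 6 were measured, 1 higher and 5 lower by the log2(value + 1) difference, with a median of -0.02. Of the 6, 0 were called, where 0.084% of all genes were. Oc90 differed by -0.02, Meis2, a homeobox gene, by -0.04, Slc26a7, an anion transporter gene of Reissner's membrane, by -0.02, Lmx1a by -0.03 and Wnt4 by 0.03. Fgf9, a growth factor gene, had the largest difference of the list, from 15.8 to 13.8 (-0.18, SE 0.07, limma adjusted p = 0.680). Genes that act in canal growth, the structure for which Otx1 is needed, gave 5 higher and 3 lower of 8 measured, a median of 0.02 and 0 called; the most abundant were Prrx1 (285 ± 28 in WT and 294 ± 13 in nmf219), Chd7 (112 ± 15.3 and 103 ± 8.37) and Jag1 (101 ± 5.31 and 108 ± 4.85).

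Markers of brain tissue, another tissue where Otx and Gbx genes act, gave 0 called genes, where 0.084% of all genes were called. Of 12 genes of the midbrain and hindbrain, 5 were measured; Hoxa2, Hoxb2, Egr2 and Lmx1b had log2 differences of 0.02 to 0.12, and Hoxa2, also a gene of neural crest, was the most abundant at 15.6 ± 2.37 in WT and 15.8 ± 1.57 in nmf219. En1, En2, Pax5, Wnt1, Fgf8, Fgf17 and Barhl2 of that list had no value here. Of 11 brain neuron genes 7 were measured, with a median of -0.03. Zic1, of dorsal neural tube and meninges, was at 116 to 128 in WT and 97.7 to 113 in nmf219 (limma adjusted p = 0.169). Slc32a1, the vesicular transporter gene of inhibitory neurons, was at 0.590 to 1.07 in WT and 0.143 to 0.460 in nmf219 (limma adjusted p = 0.199). These 2 of the 7 were lower without overlap, as were 0.782% of all genes. The authors' deposited table gave Slc32a1 an FDR of 2.61e-08 and Zic1 an FDR of 0.481. Dlx2, a gene of inhibitory neuron precursors, averaged 5.46 in WT and 4.2 in nmf219, a log2 difference of -0.31 (limma adjusted p = 0.555). The remaining ones were Slc17a6 (-0.03), Dlx1 (0.02), Gad1 (0.01) and Gad2 (0.05). With the mean of both lists as a covariate Otx2 differed by -0.84 (SE 0.21, limma adjusted p = 0.148). Of eye and pineal genes, which use Otx2 or its relative Crx, Best1 alone of 6 was measured, at 1.45 ± 0.0974 in WT and 1.55 ± 0.305 in nmf219.

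Of the related homeobox genes listed, 2 of 9 were measured. Gsc, goosecoid, whose product prefers the same bases as OTX proteins, was at 1.97, 1.82, 1.78, 1.84 and 1.74 in WT replicates 1 to 5, whereas nmf219 replicates 1 to 5 were at 1.57, 1.11, 1.43, 1.32 and 0.978. The genotypes did not overlap, as for 0.782% of all genes in that direction, and the log2 difference was -0.32 (SE 0.08, limma adjusted p = 0.501). The authors' deposited table gave Gsc an FDR of 0.0456.

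**Figure D4:**
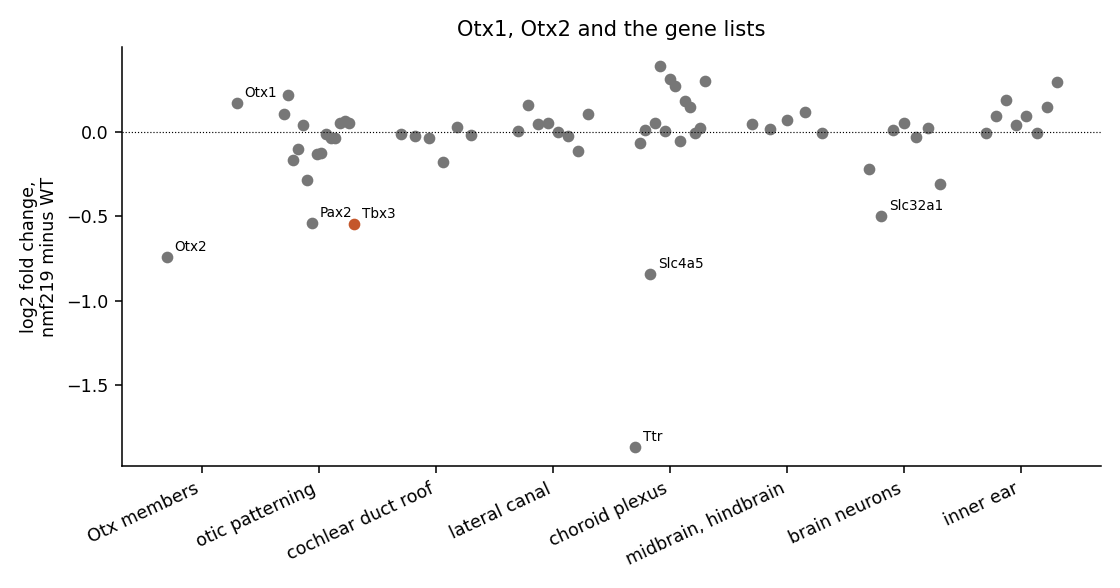
Log2 difference, nmf219 minus WT, of Otx2, Otx1 and each measured gene of 7 lists, 1 point per gene; orange marks an adjusted p under 0.05 over all genes. On this log2(value + 1) scale Otx2 (-0.74) lies below every gene of the other lists but Slc4a5 (-0.84) and Ttr (-1.87), and Tbx3 is the 1 called gene. The scale makes differences of low genes look smaller. Slc32a1 (-0.50) was 2.90-fold lower in the mean of nmf219, against 1.84-fold for Otx2. It reached a value of 1 only in WT libraries, so the fold of Slc32a1 is given as a description.

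Genes whose values followed Otx2 most closely were ranked by the correlation of deviations from the genotype means over 10 libraries, among 13790 named genes with a mean value of at least 1. The first 5 were Fanci (r = 0.99), a DNA crosslink repair gene, Tipin (0.98), a replication fork gene, Nup133 (0.97), a nuclear pore gene, Hist1h2ap (0.97), a histone gene, and H2afy (0.96), a histone variant gene. None of them passed between the genotypes; Fanci, for example, was at 13.4 ± 2.18 in WT and 12.5 ± 1.26 in nmf219. For Otx1 they were Sdad1 (0.97), Dhx15 (0.96), Uck2 (0.95), Zfp593 (0.94) and Robo1 (0.93). Otx1 and Otx2 were correlated at 0.73 with each other and ranked 1453rd in the list of Otx2 and 1113th in that of Otx1. The ranking takes the highest of 13790 values over 10 libraries and is given as a description, with no test.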

How the data were processed

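RNA of whole mouse inner ears (5 WT and 5 nmf219) was extracted with TRIzol after freezing, and sequencing libraries followed standard Illumina protocols, per the labels' protocols. No source used here gives the aligner, counting tool, strand setting, annotation or build. The deposited table holds a normalized signal per gene and library, with counts and cpm in its column names, per the file headers; columns sum to 990643 to 1009217. All values (100%) were whole multiples of 1 step per library within 0.01 of a read. A value of 1 was reached in 2 libraries by 15469 genes. Its other columns are, per the file headers, a log2 fold change, a signed fold score, a p-value and an FDR of the authors' own comparison.

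Genes were compared with limma (3.58.1, trend, R 4.3.3) on log2(value + 1) over 15472 genes with genotype as the only term. Count-based tests were planned only if whole reads could be taken as counts; the table was treated as normalized signal, so they were not run. Single values were compared by two-sided exact permutation tests, and correlations by 100000 permutations (exact for 9 or fewer libraries). Named genes were the members, the measured genes of the choroid plexus list, called and most abundant genes of the other lists, and the 5 genes most correlated with each member; Pax2, Msx2, Zic1, Slc32a1, Gsc, Fgf9 and the few others with small differences were named after their values were seen. A few measured genes of the lists are not reported here by name. Members and lists were chosen with earlier results of these data known. Coordinates are those of the table; GENCODE M21 gave the same span for Otx1 and a longer one for Otx2. Alternatives were pseudocounts, scalings, a filter, blocks, covariates and left-out libraries.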

Additional observations from a re-analysis of the deposited data

Results flagged for a closer look

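Values far from the other libraries of their group, by Dixon's 95% critical value for the gap to the nearest library, were found in 3 of 8 groups examined. The rule was applied to untransformed values and not to the log2 scale used for the group differences. Its chance rate of about 1 in 20 holds for normally distributed values and need not hold for skewed ones, so the 3 are given as a description. Ttr was at 208 in WT replicate 1, against 41.0 in the next highest WT library. Ttr was at 15.3 in nmf219 replicate 4, against 6.16 in the next highest. Hbb-y was at 33.0 in nmf219 replicate 5, against 6.15 in the next highest. Neither Otx2 nor Otx1 had such a library in either genotype.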

How the results depend on the processing

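The Otx2 difference was lower in nmf219 in all 18 alternatives that did not only leave out 1 library (-0.86 to -0.39; limma adjusted p 0.148 to 1.00) and in the 10 that did (-0.92 to -0.63; limma adjusted p 0.0378 to 0.926); it passed without WT replicate 5 (-0.92) and in none of the others. Otx1 was higher in nmf219 in all 28 (0.08 to 0.34) and passed in none, and Ttr was lower in all 26 that could be run (-4.01 with Xist as a covariate to -0.99 with the brain lists; -1.06 without WT replicate 1) and passed in none. With the replicate block Otx2 was at -0.74 (limma adjusted p = 0.907). The numbers do not pair the libraries: correlations of deviations between same-numbered libraries were -0.475 to 0.136, and 0 of 10 libraries correlated best with their own number. The count of called genes, 13, was 2 with the replicate block, 4 with Ttr, 4 with muscle genes, 2 with Xist, 24 with the brain lists and 33 with Hbb-y as a covariate, 1 and 2 within the description ranges, and 7 to 18 without single libraries. The correlation of Otx2 and Ttr was 0.33 to 0.80 without single libraries, past p under 0.05 without WT replicate 4 (0.80). The mean of the choroid plexus list differed by -0.08, by -0.22 to 0.06 without single libraries (0.063 without WT replicate 1, where the sign turned), and by -0.69 for the defining genes. The causes were not tested. Alternatives chosen after the data were seen were the separate description ranges, Hbb-y with Ttr, and the relations to measures other than Ttr. Count-based alternatives were not run. Depth limits Otx1 more than Otx2; counting intervals cover counting error only.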
